A study of Glycine max with 5 samples.

Results

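Lipoxygenases of soybean were followed here in mature pollen and in seedling organs. The members are all probe sets of the Affymetrix soybean array whose single gene symbol opens with LOX or VLX, and the rule gave 21 of 37593 probe sets for 9 genes. A further probe set that carries several such symbols was left out. Probe sets of a gene are numbered here in the order of their identifiers, and those whose identifier ends in _s_at, _x_at or _a_at can take signal from related transcripts. Every gene symbol was matched by gene ID to the RefSeq gene table of assembly Glycine_max_v4.0, used here for names and for gene neighbours only.

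Lipoxygenases add oxygen to linoleic and linolenic acid and so make fatty acid hydroperoxides. Allene oxide synthase and allene oxide cyclase lead such hydroperoxides to the hormone jasmonate, and hydroperoxide lyase splits them into aldehydes of green leaf odour. Soybean is the classical source of the enzyme. Its dry seeds hold the forms L-1, L-2 and L-3, which the gene table pairs with LOX1.1, LOX2 and LOX3, and its leaves hold vegetative forms that also serve as a store of nitrogen. The gene table gives LOXB1 the further names L-4 and VSP94, of which VSP94 is that of a vegetative storage protein. VLXC, LOX7, LOX9 and LOX10 have no other name in that table.

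Pollen of the cultivar Bragg was read on 3 arrays and its sporophytic tissues on 2, and each array stands for a biological replicate. Pollen came from glasshouse plants kept at 30 °C under 16 hours of light, in which flowering was brought on with 12 hours of light, and it was released by rubbing isolated anthers on coverslips. Sporophytic RNA came from 10-day-old seedlings, with stem, roots and leaves named in the methods and leaves and stems in the results text. Growth conditions of the seedlings are not given in the sources used here. Plant age and organ differ together between the groups and cannot be told apart.

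The deposited values are log2 signals after Robust Multiarray Averaging (RMA). Median log2 signals over all probe sets lay between 4.11 and 4.24 on the pollen arrays and between 5.25 and 5.43 on the sporophytic arrays, a shift of -1.15. A linear signal of 100 (log2 6.64), which the methods use among the criteria for pollen-specific genes, serves here as a minimum for detection. Each pollen array had 18.4 to 19.9% of its probe sets at or above it, and each sporophytic array 33.7 to 35.9%. Marker genes separated the groups. The 4 pollen probe sets, which the study picked on these arrays, had signals of at least 13000 on every pollen array and a sum of 18.8 to 23.6 over all of them on the sporophytic arrays. Of 11 probe sets for chlorophyll a/b binding protein CAB3 and for Rubisco activase, markers of green tissue, 9 were lower in pollen, and the list had a median of -5.49 on the log2 scale. No marker of roots was examined. Since whole tissues were extracted, fewer cells of a kind and less RNA per cell cannot be told apart.

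Most lipoxygenase probe sets were lower in pollen, and no seed gene was among them. At an adjusted p under 0.05 from limma, 14 of the 21 probe sets were lower (66.7%), 1 was higher and 6 did not pass. Over all soybean probe sets 34.5% were lower and 18.9% were higher. All 14 that were lower fell at least 2-fold, which is 14 of the 21 probe sets (66.7%) against 32.2% of all probe sets. Of the 12969 soybean probe sets called lower, 12123 also fell at least 2-fold, so passing 2-fold does not set the lipoxygenases apart. The median log2 difference (pollen minus sporophytic) was -3.71 for the 21 probe sets and -0.22 for all probe sets. With the probe sets of a gene averaged, VLXB, VLXC, LOXB1, LOX7 and LOX9 were lower and LOX3 was higher, while LOX1.1, LOX2 and LOX10 did not pass. Averaged so, 34.2% of the entries on the array were lower and 19.3% were higher. With array weights in limma the calls were fewer, 6 of the 21 probe sets and 2 genes lower and none higher. With these weights 22.2% of all probe sets were lower and 5.8% were higher.

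**Figure D1:**
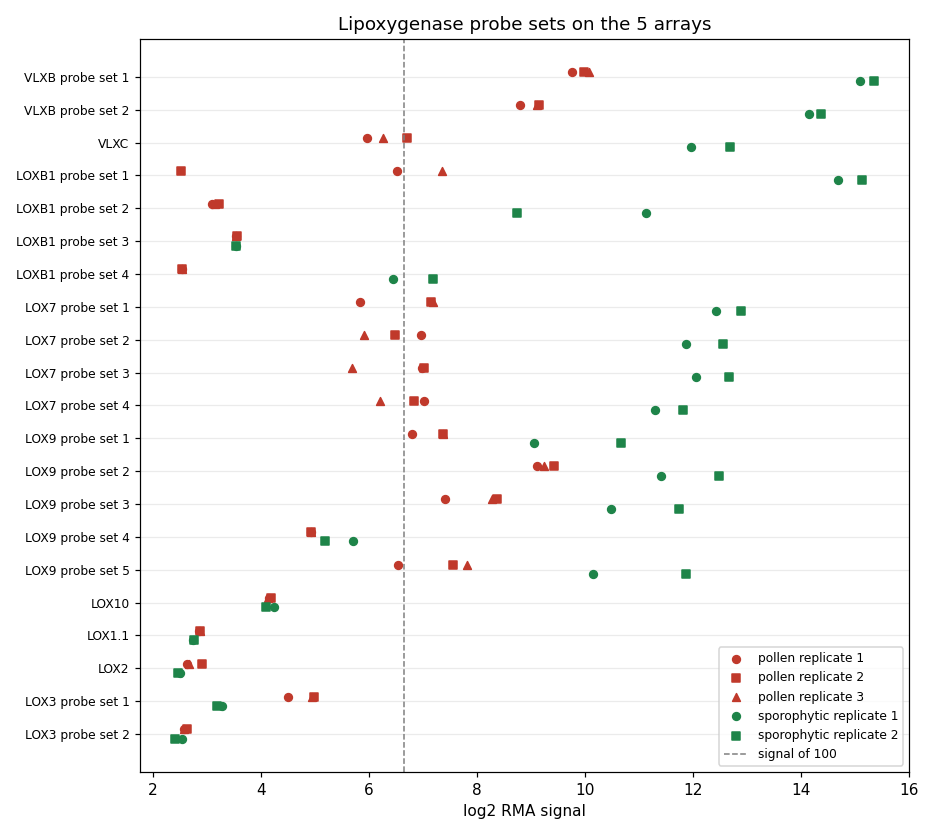
Log2 RMA signal (horizontal axis) of each of the 21 lipoxygenase probe sets on 3 pollen arrays (red) and 2 sporophytic arrays (green), with a dashed line at a signal of 100. Probe sets of VLXB, VLXC, LOXB1, LOX7 and LOX9 are mostly well to the right in sporophytic tissues, and all probe sets of LOX10, LOX1.1, LOX2 and LOX3 lie below the line on every array.

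A signal of 100 was reached on both sporophytic arrays by 13 of the 21 probe sets, where 29.8% of all probe sets did so. They belong to VLXB, VLXC, LOXB1, LOX7 and LOX9. On every pollen array it was reached by 5, against 17.4% of all probe sets. These 5 belong to VLXB and LOX9. Below 100 on all 5 arrays lay 7 probe sets, for LOX1.1, LOX2, LOX3 and LOX10 and for 1 probe set each of LOX9 and LOXB1. At signals that low a transcript below the array's reach cannot be told from an absent transcript. All pollen arrays lay below all sporophytic arrays for 15 members and above them for 4. Such separation was found for 41.7% and 36.4% of all probe sets.

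VLXB, a vegetative lipoxygenase, was strongly lower in pollen but clearly detected there. VLXB probe set 1 had log2 signals of 9.77, 9.98 and 10.08 in pollen and of 15.09 and 15.37 in sporophytic tissues. On the linear scale these are 873, 1010 and 1080 in pollen and 34900 and 42200 in sporophytic tissues. The groups were far apart on every array, and replicates of each group were close. The log2 difference was -5.29 (standard error 0.14, 95% interval -5.69 to -4.88, adjusted p = 1.1e-04 from limma), a 39.0-fold lower signal. VLXB probe set 2, which can take signal from related sequences, gave nearly the same picture, with 8.81, 9.15 and 9.11 in pollen, 14.15 and 14.37 in sporophytic tissues and a log2 difference of -5.24. Pollen thus held 2.56 and 2.65% of the sporophytic signal on these probe sets. For the 9 green tissue probe sets that were lower, the same figure ran between 0.352 and 4.97%. Of the 11 green tissue probe sets, 2 reached a signal of 100 on every pollen array. The authors took anther tissue off the coverslips and checked pollen purity under the microscope. The part of tissue carried over with pollen was not tested on the arrays.

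VLXC, also a vegetative form, had log2 signals of 5.96, 6.72 and 6.27 in pollen and of 11.97 and 12.70 in sporophytic tissues. In pollen 1 of the 3 arrays reached a signal of 100, and no pollen array came near a sporophytic array. Its log2 difference of -6.02 (standard error 0.35, 95% interval -7.00 to -5.03, adjusted p = 6.1e-04 from limma) is a 64.7-fold lower signal in pollen. The interval of VLXC overlaps that of VLXB, and a difference between the genes was not tested.

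LOX7 was read by 4 probe sets, and all were lower in pollen, by 4.87 to 5.94 on the log2 scale. LOX7 probe set 2, whose identifier carries no mark for shared sequence, had log2 signals of 6.96, 6.49 and 5.92 in pollen and of 11.88 and 12.56 in sporophytic tissues. Its difference was -5.77 (standard error 0.41, 95% interval -6.93 to -4.60, adjusted p = 0.0011 from limma). In sporophytic tissues the probe sets of LOX7 were alike in order, since replicate 2 was higher on all 4. In pollen they were not. LOX7 probe set 1 was lowest on pollen replicate 1, with 5.84 against 7.16 and 7.20 on replicates 2 and 3. LOX7 probe set 3 was lowest on replicate 3, with 5.69 against 6.98 and 7.01 on replicates 1 and 2. These pollen values lie around the signal of 100, the minimum used here. LOX7 probe set 4 had the smallest fall of the 4, with 7.03, 6.84 and 6.20 in pollen and 11.30 and 11.82 in sporophytic tissues.

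LOXB1, the gene also named VSP94, gave the widest span of all, because its 4 probe sets disagreed. On LOXB1 probe set 1 the log2 signals were 6.53, 2.51 and 7.35 in pollen and 14.70 and 15.14 in sporophytic tissues. Pollen replicate 2 stood far below the others. The difference of -9.46 was the largest among the members, but its standard error was 1.71 and its 95% interval ran from -14.27 to -4.64 (adjusted p = 0.014 from limma). Without pollen replicate 2 it was -7.98 (adjusted p = 0.0043 from limma). It lost the call without sporophytic replicate 1 or without replicate 2 (adjusted p = 0.063 and 0.071 from limma), fits in which the remaining sporophytic array stands alone.

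LOXB1 probe set 2 had 3.10, 3.22 and 3.16 in pollen and 11.13 and 8.75 in sporophytic tissues. Here it was the sporophytic pair that disagreed, with replicate 1 higher by 2.38, whereas replicate 2 was higher on the other 13 members that were lower in pollen. The log2 difference was -6.78 (standard error 0.78, adjusted p = 0.0039 from limma), or -5.59 without sporophytic replicate 1 and -7.97 without replicate 2. LOXB1 probe set 4 was dim, with 2.55, 2.54 and 2.54 in pollen and 6.44 and 7.20 in sporophytic tissues, and fell by 4.27. LOXB1 probe set 3 did not pass. It had 3.55, 3.56 and 3.55 in pollen and 3.55 and 3.54 in sporophytic tissues, below 100 on every array, and a log2 difference of 0.01 (95% interval -0.12 to 0.13, adjusted p = 0.92 from limma). Probe sets 1 and 2 end in _s_at and can match several transcripts, so their signals cannot be ascribed to LOXB1 alone, while probe sets 3 and 4 carry no such mark.

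LOX9 had the mildest fall of the genes that were lower. Besides VLXB it was the only gene with probe sets above a signal of 100 on every pollen array. LOX9 probe sets 2, 3 and 5 end in _s_at or _x_at, so their signals cannot be ascribed to LOX9 alone. LOX9 probe set 1, without such a mark, had linear signals of 112, 165 and 165 in pollen, not far above 100. LOX9 probe set 2 had log2 signals of 9.12, 9.44 and 9.24 in pollen and of 11.41 and 12.49 in sporophytic tissues. This is a difference of -2.68 (standard error 0.37, 95% interval -3.72 to -1.64, adjusted p = 0.0065 from limma), a 6.41-fold lower signal. LOX9 probe set 1 had 6.81, 7.37 and 7.37 in pollen and 9.06 and 10.67 in sporophytic tissues, a difference of -2.69. Pollen signals were steady there, while the sporophytic arrays differed by 1.61. LOX9 probe set 3 fell by 3.09 and LOX9 probe set 5 fell by 3.71 on the log2 scale, with adjusted p of 0.013 and 0.017 from limma.

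LOX9 probe set 4 stayed below a signal of 100 on all arrays. It had 4.93 on each pollen array and 5.70 and 5.19 in sporophytic tissues, and its difference of -0.52 did not pass (adjusted p = 0.073 from limma). Some calls for LOX9 did not last when an array was left out. That of LOX9 probe set 1 was lost when any pollen array was left out (adjusted p of up to 0.077 from limma), and that of LOX9 probe set 5 without any pollen array or without sporophytic replicate 2 (up to 0.063). Pollen kept between 7.65 and 15.6% of the sporophytic signal on the 4 LOX9 probe sets that were lower, against 1.55 to 3.42% for VLXB, VLXC and LOX7. Averaged per gene, the 95% interval of LOX9 (-3.68 to -1.40) did not overlap those of VLXB (-5.67 to -4.86), VLXC (-7.00 to -5.03), LOX7 (-6.40 to -4.79) and LOXB1 (-6.34 to -3.91). That average takes in the dim LOX9 probe set 4. On single probe sets intervals did overlap, as for LOX9 probe set 5 (-5.74 to -1.68) and VLXB probe set 1 (-5.69 to -4.88). The difference between genes was not tested.

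**Figure D2:**
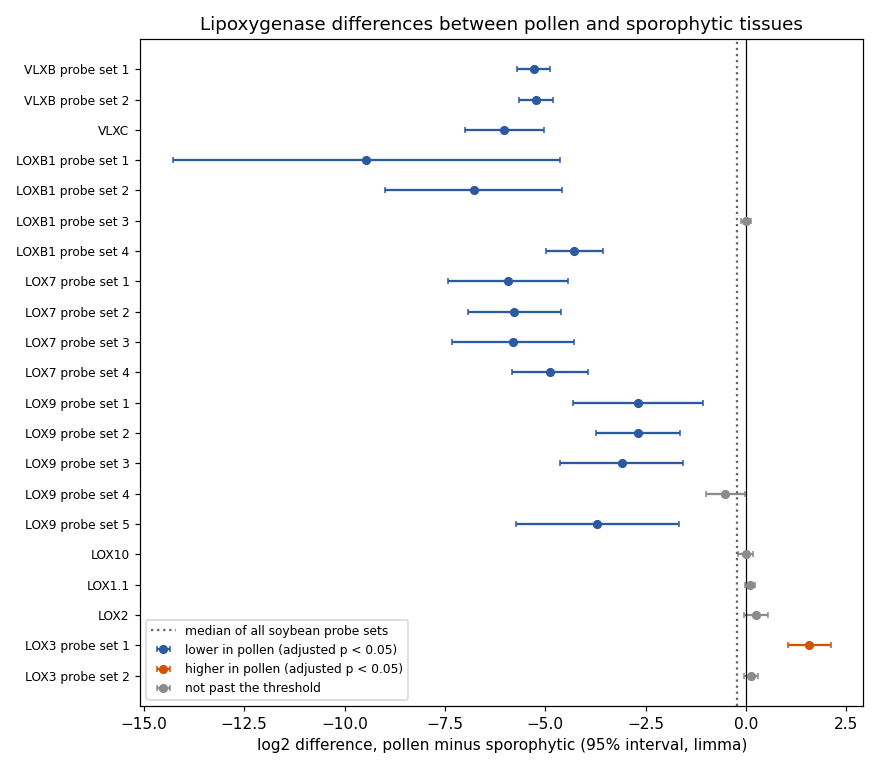
Log2 difference (pollen minus sporophytic) of the 21 lipoxygenase probe sets with 95% intervals from limma, coloured by call, with a dotted line at the median of all soybean probe sets (-0.22). VLXB, VLXC and LOX7 lie between -6.02 and -4.87, LOX9 is nearer to 0, and only LOX3 probe set 1 is called higher in pollen.

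The seed genes and LOX10 were at the low end of the array in both groups. LOX1.1, the gene of seed form L-1, had 2.85, 2.87 and 2.87 in pollen and 2.75 and 2.76 in sporophytic tissues, a log2 difference of 0.11 (95% interval -0.02 to 0.24, adjusted p = 0.12 from limma). LOX2, the gene of form L-2, had 2.64, 2.91 and 2.66 in pollen and 2.50 and 2.47 in sporophytic tissues, a difference of 0.25 (95% interval -0.06 to 0.56, adjusted p = 0.14). LOX10 had 4.16, 4.18 and 4.14 in pollen and 4.24 and 4.10 in sporophytic tissues, a difference of -0.01 (95% interval -0.19 to 0.17, adjusted p = 0.91). Only for LOX10 among these 3 did the groups overlap. At such signals none of the 3 genes can be said to be expressed or silent.

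LOX3, the gene of form L-3, supplied the single rise. LOX3 probe set 1 had 4.50, 4.99 and 4.95 in pollen and 3.28 and 3.19 in sporophytic tissues, a difference of 1.58 (standard error 0.19, 95% interval 1.05 to 2.11, adjusted p = 0.0042 from limma) or 2.99-fold. On the linear scale these are signals of 22.6, 31.8 and 30.9 in pollen and 9.69 and 9.11 in sporophytic tissues, all well below 100. LOX3 probe set 2 had 2.58, 2.64 and 2.58 in pollen and 2.54 and 2.41 in sporophytic tissues and did not pass (adjusted p = 0.19 from limma). The call of LOX3 probe set 1 was lost with array weights and with the replicate number as a block (adjusted p = 0.20 and 0.068 from limma).

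Calls of the dim genes were not the same under each scaling of the arrays. VLXB, VLXC, LOXB1, LOX7 and LOX9 were lower in pollen with the deposited signals, after a second quantile normalization of the soybean probe sets, and with their medians made equal. VLXC, for instance, had log2 differences of -6.02, -5.43 and -4.87 under these scalings, and LOX9 had -2.54, -1.80 and -1.39. LOX10 had differences of -0.01, 0.84 and 1.14, of which the last 2 passed as higher (adjusted p = 0.0025 and 0.0014 from limma). With equal medians LOX1.1, LOX2, LOX3 and LOX10 were all called higher, by 1.14 to 2.00, where the median of all probe sets was itself 0.93. That scaling takes the shift of -1.15 between the array medians out of every difference alike. With it the calls of LOX1.1, LOX2 and LOX10 cannot be told from that shift. LOX3 was already higher with the deposited signals and after the quantile normalization, by 0.85 and 1.20 (adjusted p = 0.0057 and 0.0011 from limma). After the quantile normalization LOX1.1 and LOX2 did not pass (adjusted p = 0.061 and 0.12 from limma).

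**Figure D3:**
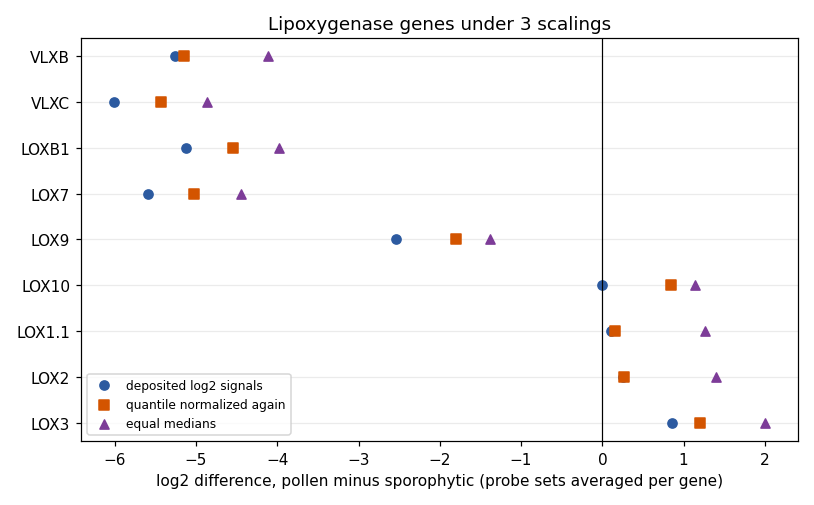
Log2 difference (pollen minus sporophytic) of the 9 lipoxygenase genes, probe sets averaged per gene, with the deposited signals (circles), after a second quantile normalization (squares) and with equal medians (triangles). The 5 upper genes stay below 0 under all 3 scalings, whereas LOX10 is at -0.01 with the deposited signals and above 0 under the others.

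Genes that lie side by side did not all have the same call. In the gene table LOX2, LOX1.1, LOXB1 and LOX7 follow each other with 0 protein-coding genes between them. Of these LOXB1 and LOX7 were lower in pollen while LOX2 and LOX1.1 did not pass. LOX2 and LOX1.1 were below a signal of 100 on every array, so a fall in pollen could hardly be seen in them. LOX3 and VLXB lie on another chromosome with 1 protein-coding gene between them, and VLXB was lower in pollen where 1 probe set of LOX3 was higher. The LOX3 signals too were below 100 on every array. VLXC and LOX9 share a chromosome but are 249 coding genes apart.

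The sporophytic arrays were also set against each other. Replicate 2 was higher than replicate 1 on 14 of the 21 probe sets, near the share of 64.2% over all probe sets. Among the 14 that were lower in pollen, 13 were higher in replicate 2. At least 2-fold higher in replicate 2 were 4 members, all of LOX9, against 11.5% of all probe sets. At least 2-fold higher in replicate 1 was 1 member, the LOXB1 probe set named above, against 8.54%. The summed linear signal of the 21 probe sets was between 2960 and 3670 on the pollen arrays, against 108000 on sporophytic replicate 1 and 145000 on replicate 2. Such sums count a gene once per probe set, and the brightest members lead them. On sporophytic replicate 2 these were VLXB probe sets 1 and 2 (42200 and 21200) and LOXB1 probe set 1 (36200). Green tissue markers went the other way between the sporophytic replicates. Their summed signal was 988 to 1200 on the pollen arrays, against 123000 on sporophytic replicate 1 and 34400 on replicate 2, and 3 of their 11 probe sets were higher in replicate 2. None of these markers was at 0, and the lowest linear signal was 4.92. The part of leaf content in the lipoxygenase signals was not tested.

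**Figure D4:**
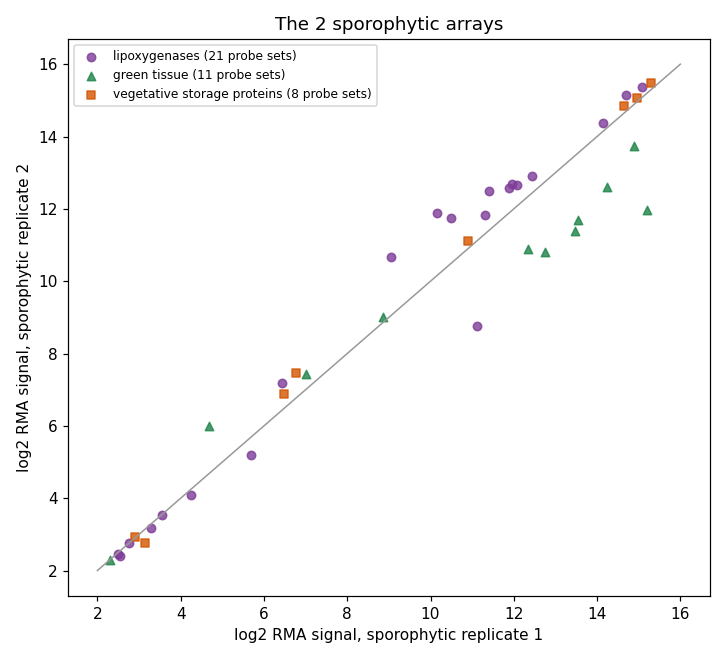
Log2 RMA signal on sporophytic replicate 1 (horizontal) and replicate 2 (vertical) for probe sets of lipoxygenases, green tissue markers and vegetative storage proteins, with a line of equal signal. Lipoxygenase probe sets mostly lie above the line (14 of 21 higher in replicate 2, against 64.2% of all probe sets). Bright green tissue markers lie below it.

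Lists of related genes were examined beside the family. Their counts stand against 34.5% lower and 18.9% higher over all probe sets. Vegetative storage protein VSPA, an acid phosphatase relative that accumulates with vegetative lipoxygenases in leaves, was lower in pollen for 6 of 8 probe sets, higher for 1 and not past the test for 1, with a median log2 difference of -3.76. The VSPA probe set with the largest fall had 5.69, 6.22 and 4.73 in pollen and 15.30 and 15.47 in sporophytic tissues, a difference of -9.84. The VSPA probe set next to it in size of fall had a mean of 7.58 in pollen (SD 0.12, n = 3) against 14.74 in sporophytic tissues (SD 0.13, n = 2). Unlike the green tissue markers, 7 of the 8 VSPA probe sets were higher on sporophytic replicate 2 than on replicate 1.

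Of 8 probe sets for jasmonate synthesis, 2 were lower, 1 was higher and 5 did not pass, with a median of -3.18. Over all probe sets 34.5% were lower and 18.9% were higher. AOC6, an allene oxide cyclase, had 3.41, 5.02 and 5.02 in pollen and 8.95 and 9.64 in sporophytic tissues, a difference of -4.81. AOC3, another cyclase, fell by 3.46 on 1 probe set. On its other probe set AOC3 had 3.97, 6.36 and 4.15 in pollen and 11.19 and 7.70 in sporophytic tissues and did not pass, and here replicate 1 was the higher sporophytic array. That probe set was chosen after its values were seen. The rise was 0.31, on a probe set of allene oxide synthase AOS1 that was below a signal of 100 on all arrays. No probe set of this list reached a signal of 100 on every pollen array. COI1, the F-box protein of the jasmonate receptor, was lower for 4 of its 6 probe sets (median -1.16). Some of these stayed below a signal of 100 on all arrays. Its fall was largest on a probe set with 3.21, 3.25 and 3.22 in pollen and 7.67 and 8.84 in sporophytic tissues. The 1 COI1 probe set at 100 on every pollen array had 8.48, 8.25 and 8.06 in pollen and 8.42 and 8.68 in sporophytic tissues. That probe set, chosen after its values were seen, did not pass (difference -0.29, adjusted p = 0.23 from limma). No hydroperoxide lyase and no phospholipase was found under the symbols searched.

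Fatty acid desaturases, which make the polyunsaturated acids that lipoxygenases oxidise, were mostly not past the test. Of 14 probe sets 1 was lower, 2 were higher and 11 did not pass, with a median of 0.16. The shares over all probe sets were 34.5% lower and 18.9% higher. FAD2-2, which makes linoleic acid, had 13.82, 13.46 and 13.42 in pollen and 13.31 and 13.89 in sporophytic tissues on 1 of its probe sets, a difference of -0.03 (95% interval -0.71 to 0.65). This probe set was chosen after its values were seen, and all its pollen values lay between the sporophytic values. FAD3C, a linolenic acid enzyme, fell by 4.12 on 1 probe set and was higher by 0.35 on another, which stayed below a signal of 100. FAD8.2 was higher by 1.51 on a probe set that stayed below a signal of 100. Its other probe sets were above 100 on all arrays and did not pass, with differences of 0.07 and -0.45.

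Other seed proteins were mixed. Of 16 probe sets for storage globulins and Kunitz trypsin inhibitors, 3 were lower, 5 were higher and 8 did not pass, with a median of 0.16. Again 34.5% of all probe sets were lower and 18.9% were higher. All 3 that were lower carry the symbols KTI-2 and KTI-3, with differences between -4.90 and -3.45. A probe set of CG-BETA-1, a beta-conglycinin gene, had 5.26, 5.77 and 5.73 in pollen and 3.22 and 3.17 in sporophytic tissues, a rise of 2.39 below a signal of 100.

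**Figure D5:**
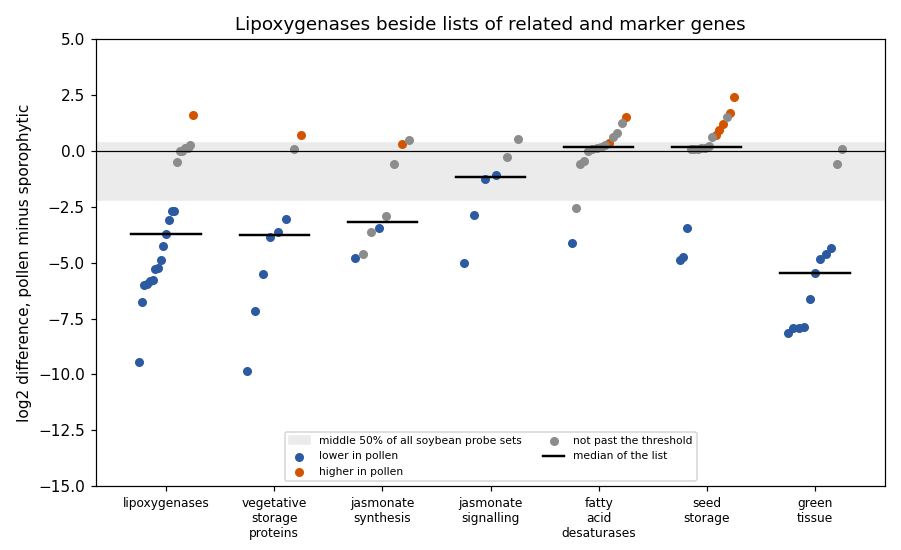
Log2 difference (pollen minus sporophytic, vertical axis) of single probe sets in lipoxygenases and 6 lists of related or marker genes, coloured by call, with the median of each list (bar) and the middle 50% of all soybean probe sets (grey band). Medians are -3.71 for lipoxygenases, -3.76 for vegetative storage proteins, 0.16 for fatty acid desaturases and -5.49 for green tissue.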

How the data were processed

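Total RNA of pollen and of sporophytic tissues was hybridised to Affymetrix soybean arrays. The authors background-corrected, normalized and summarised the scans by RMA in affylmGUI, and the deposited table holds log2 signals. RMA pulls low signals together, and levels of different probe sets are not on a common scale. Arrays were grouped by their labels, with 3 pollen and 2 sporophytic arrays, so that their small number limits the precision.

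Gene symbols came from the platform annotation and were matched by gene ID to the RefSeq gene table. The 37593 soybean probe sets of the table were fitted on the log2 scale with lmFit and eBayes of limma 3.58.1 in R 4.3.3, two-sided, with no filter on dim probe sets, and p-values were adjusted by Benjamini-Hochberg over all of them at a threshold of 0.05. Intervals are 95% intervals from that fit. Per gene, log2 signals were averaged over its probe sets and fitted again across 34945 entries. The script was tested on simulated data. Figures were drawn in matplotlib 3.10.9.

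The members and lists were chosen with earlier results of these data known. The rule named all lipoxygenase probe sets, the 3 nearest probe sets to the lowest and to the highest member (left out of the text, since they rest on signals of different probe sets), and up to 4 called members of each list, taken by the size of their difference. Alternatives were another scaling, a filter on dim probe sets, an intensity trend, array weights, the replicate number as a block, each array left out and other thresholds. Sequences and coordinates were not used here.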

Additional observations from a re-analysis of the deposited data

How the results depend on the processing

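The 5 genes that were lower in pollen kept that call under each scaling, under the replicate block and without each array, and with array weights 2 were called. Of the 14 probe sets that were lower, 11 kept the call without each array in turn and 3 lost it at least once. The count was 12 without any 1 pollen array, where 28.3 to 29.6% of all probe sets were lower. It was 6 with array weights, where 22.2% of all probe sets were lower. Among the 11 probe sets without an s, x or a suffix, 5 were lower, where 34.5% of all probe sets of any suffix were lower. With a suffix, 4 of 5 s, 4 of 4 x and 1 of 1 a probe sets were lower. Where a sporophytic array was left out, the other stood alone and was assumed to vary like pollen.

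Counts of higher lipoxygenases also moved, and the cause was not tested. Equal medians take the same shift out of every difference. A second quantile normalization gave 4 probe sets and 2 genes higher, against 1 and 1. Equal medians gave 6 and 4, and the intensity trend 2 and 2. The filter on dim probe sets, array weights and the replicate block gave 0 and 0. Over all probe sets 18.9% were higher in the main fit, 37% with quantile normalization, 53.3% with equal medians and 25.3% with the trend. The share was 27.4% of those left by the filter, 5.8% with array weights and 9.34% with the block. Without any 1 pollen array 1 probe set and 1 gene were higher, where 12.8 to 16.3% of all probe sets were. Asking for at least 2-fold gave 0 genes. LOX10 reversed to 0.84 with quantile normalization and to 1.14 with equal medians, for the probe set and the gene, and the second of these is that common shift alone. LOX9 probe set 4 reversed to 0.77 with quantile normalization. Probe sets at the signal minimum on every pollen array numbered 11 at a minimum of 50 and 3 at 200, against 5 at 100.

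The labels do not say that replicate numbers pair the samples. Deviations of same-numbered arrays from their group means correlated at 0.024 and 0.016 over all probe sets. These values are not independent, since the deviations of the sporophytic pair mirror each other. Whether same-numbered arrays shared a batch was not tested. With the replicate block 11 lipoxygenase probe sets were lower and 0 higher, against 14 and 1. Over all probe sets 23% were lower and 9.34% were higher with that block. LOX3 probe set 1 no longer passed there (log2 difference 1.51, adjusted p = 0.068 from limma).

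In the lists, quantile normalization gave 1 jasmonate synthesis probe set lower, and 2 for jasmonate signalling lower and 2 higher. It gave 2 vegetative storage protein probe sets higher. Over all probe sets 26.4% were lower and 37% were higher with it. Equal medians gave 2 for jasmonate signalling lower and 2 higher, 2 for jasmonate synthesis higher and 2 for vegetative storage proteins higher. They also gave 10 desaturase, 12 seed storage and 1 green tissue probe sets higher. With equal medians 26.2% of all probe sets were lower and 53.3% were higher. Leaving out each array gave ranges of 1 to 4 desaturases lower and 1 to 4 higher, 1 to 6 for jasmonate synthesis lower and 0 to 1 higher, 2 to 4 for jasmonate signalling lower and 0 to 1 higher, 0 to 1 for vegetative storage proteins higher and 4 to 8 for seed storage higher.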
